A study of Mus musculus with 4 samples.

Results

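Ubiquitin-specific proteases, the largest family of enzymes that take ubiquitin off proteins, were followed in RNA of mouse pancreas. Members were chosen by their symbols, Usp with a number and optional letters, and the rule used no measured value. Earlier results of these data were known when the members were chosen. Of 55291 symbols counted, 58 matched, and 48 had at least 10 counts in at least 2 of the 4 libraries. The same 48 were tested. Usp6nl, a Rab GTPase-activating protein, and Usp46os1 and Usp46os2, transcripts from the opposite strand of Usp46, match the symbols but encode no ubiquitin-specific protease. That leaves 55 proteases, 47 of them among the 48.

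Both groups carried Pdx1-Cre, a recombinase driven by the promoter of Pdx1, a gene of the embryonic cells that form the epithelium of the pancreas and of mature beta cells. The 2 libraries labelled knockout came from pancreas of Pdx1-Cre+, poh1f/f mice, in which both copies of poh1 are floxed. The sample labels give this genotype, and the deposited counts of these libraries are headed KO, for which knockout stands here. Pancreas of Pdx1-Cre+, poh1f/+ mice, with 1 floxed copy, gave the 2 control libraries, so recombinase and floxed allele were present in the controls too. Age, sex and strain are not given in the labels. Poh1, now Psmd14, is the deubiquitinase of the proteasome lid. It belongs to the metalloprotease family and not to the Usp family, so the comparison asks how the cysteine proteases of the same reaction behaved where this enzyme was targeted. Nothing in the labels ties the libraries to separate animals. The p-values below hence rest on the spread between the libraries at hand, part of which may be technical.

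Deubiquitinases cut the bond between ubiquitin and its substrate, or between the ubiquitins of a chain, and so set whether a marked protein is degraded, relocated or kept. Ubiquitin-specific proteases share a papain-like fold with a catalytic cysteine and a histidine, and differ in the domains around it that bring them to the proteasome, chromatin, endosomes, mitochondria or the spliceosome. Several keep p53, Myc or their ligases stable, and others edit histones H2A and H2B.

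Total counts were 27470926 and 27849730 in the libraries labelled knockout, and 22875618 and 24635792 in the controls. Values are CPM, counts scaled to the TMM-adjusted size of each library, in which 1 count was worth 0.0342 to 0.0455 CPM. Differences are log2 fold changes ± SE, libraries labelled knockout minus controls, from edgeR's quasi-likelihood test over 19134 genes with 2 libraries a group; "passed" means a Benjamini-Hochberg adjusted p under 0.05. Psmd14 itself was not lower, at 65.9 and 65.2 CPM in the libraries labelled knockout, against 61.6 and 52.9 CPM in the controls (log2 difference 0.20 ± 0.11, edgeR adjusted p = 0.259), so every direction below is between labels. The labels do not name the floxed exons, and reads from the other exons would still be counted. The tissue differed broadly between labels. The summed level of 10 lymphocyte markers was 1420 and 1490 CPM in the libraries labelled knockout, against 273 and 292 CPM in the controls. For 8 adipocyte markers it was 3860 and 2800 CPM in the libraries labelled knockout, against 317 and 768 CPM in the controls. For 10 acinar markers it was 182 and 488 CPM in the libraries labelled knockout, against 7860 and 1870 CPM in the controls. Lymphocyte and adipocyte RNA was thus higher and acinar RNA lower, with no overlap. Duct markers (8 genes) summed to 765 and 817 CPM in the libraries labelled knockout, against 3010 and 2470 CPM in the controls. Fibroblast markers (8 genes) summed to 10200 and 8630 CPM in the libraries labelled knockout, against 22400 and 26400 CPM in the controls. Islet markers (8 genes) summed to 430 and 129 CPM in the libraries labelled knockout, against 1750 and 1000 CPM in the controls. Of these lists 10 of 10 lymphocyte and 7 of 8 adipocyte markers passed as higher. The markers that passed as lower were 6 of 10 acinar, 7 of 8 duct, 5 of 8 fibroblast and 4 of 8 islet genes. None of the genes of these lists was at 0 in all libraries. In bulk RNA fewer cells of a type and less RNA per cell cannot be told apart. The part of these shifts in the Psmd14 levels and in the Usp differences was not tested.

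Most Usp genes lay within 0.5 of 0 on the log2 scale between labels. Of the 48, Usp11, Usp24 and Usp36 rose and Usp46 and Usp13 fell, and 43 did not pass. That is 10.4% of the members, against 22.1% of all 19134 genes tested. By direction 6.25% of members rose, against 12.1% of all genes, and 4.17% fell, against 9.95%. With no scaling beyond the library total 6 rose, Usp6nl among them, and 2 fell. The median of all genes also moved up in that fit, and its share of all genes called is not given here. An unadjusted p under 0.05 was reached by 14 members (29.2%), against 38.4% of all genes, and 3 members, Usp13, Usp29 and Usp43, differed by at least 1 on the log2 scale (6.25%), against 21.4% of all genes. The median log2 difference was 0.07, with quartiles −0.16 and 0.26, against 0 with quartiles −0.37 and 0.45 for all genes. The median size of the difference regardless of sign was 0.21 for the members and 0.41 for all genes, and 39 of 48 members (81.2%) lay within 0.5 of 0 on the log2 scale, against 57.3% of all genes. The members were also more abundant, with a median of 44.1 CPM over all libraries against 18 CPM for all tested genes, and their replicates lay closer together. The median absolute log2 ratio between replicates was 0.09 in the libraries labelled knockout and 0.16 in the controls for members, against 0.17 in the libraries labelled knockout and 0.25 in the controls for all genes. The groups did not overlap for 33 of 48 members (68.8%), about the share of all genes (68.1%). Of the members 22 were higher (45.8%, against 34.4% of all genes) and 11 lower (22.9%, against 33.7%). Together the 58 symbols took 0.335 ± 0.0089% of counts in the libraries labelled knockout and 0.283 ± 0.0254% in the controls (SD, n = 2 each), a difference of 0.0528 percentage points (exact two-sided permutation test p = 0.333, the smallest that 2 libraries against 2 allow).

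**Figure D1:**
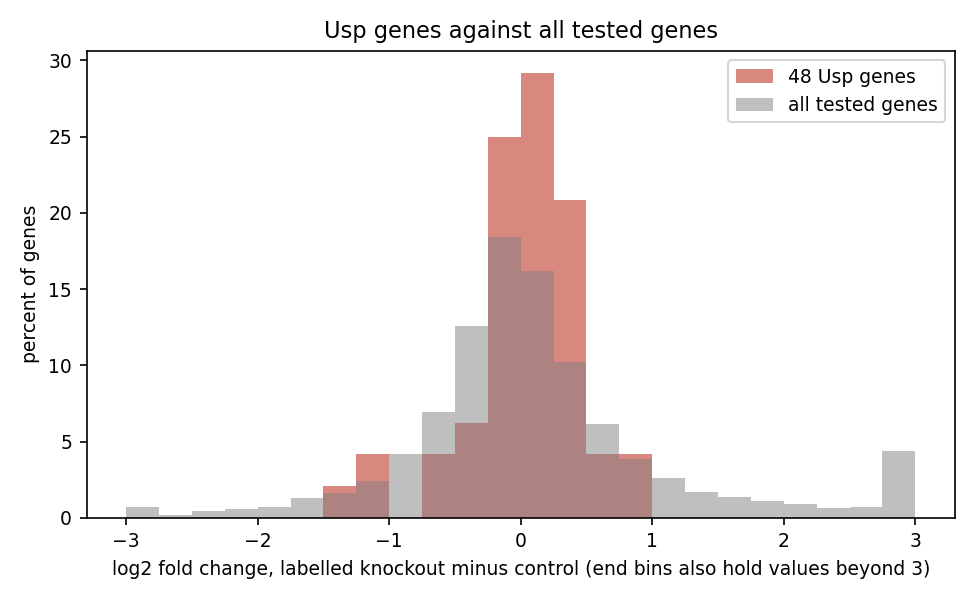
Percent of genes (y axis) in bins of the log2 fold change, libraries labelled knockout minus controls (x axis), for the 48 Usp genes (red) and all 19134 tested genes (grey). The Usp genes crowd around 0, from −1.26 to 0.81, while all genes reach from −7.63 to 11.14.

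**Figure D2:**
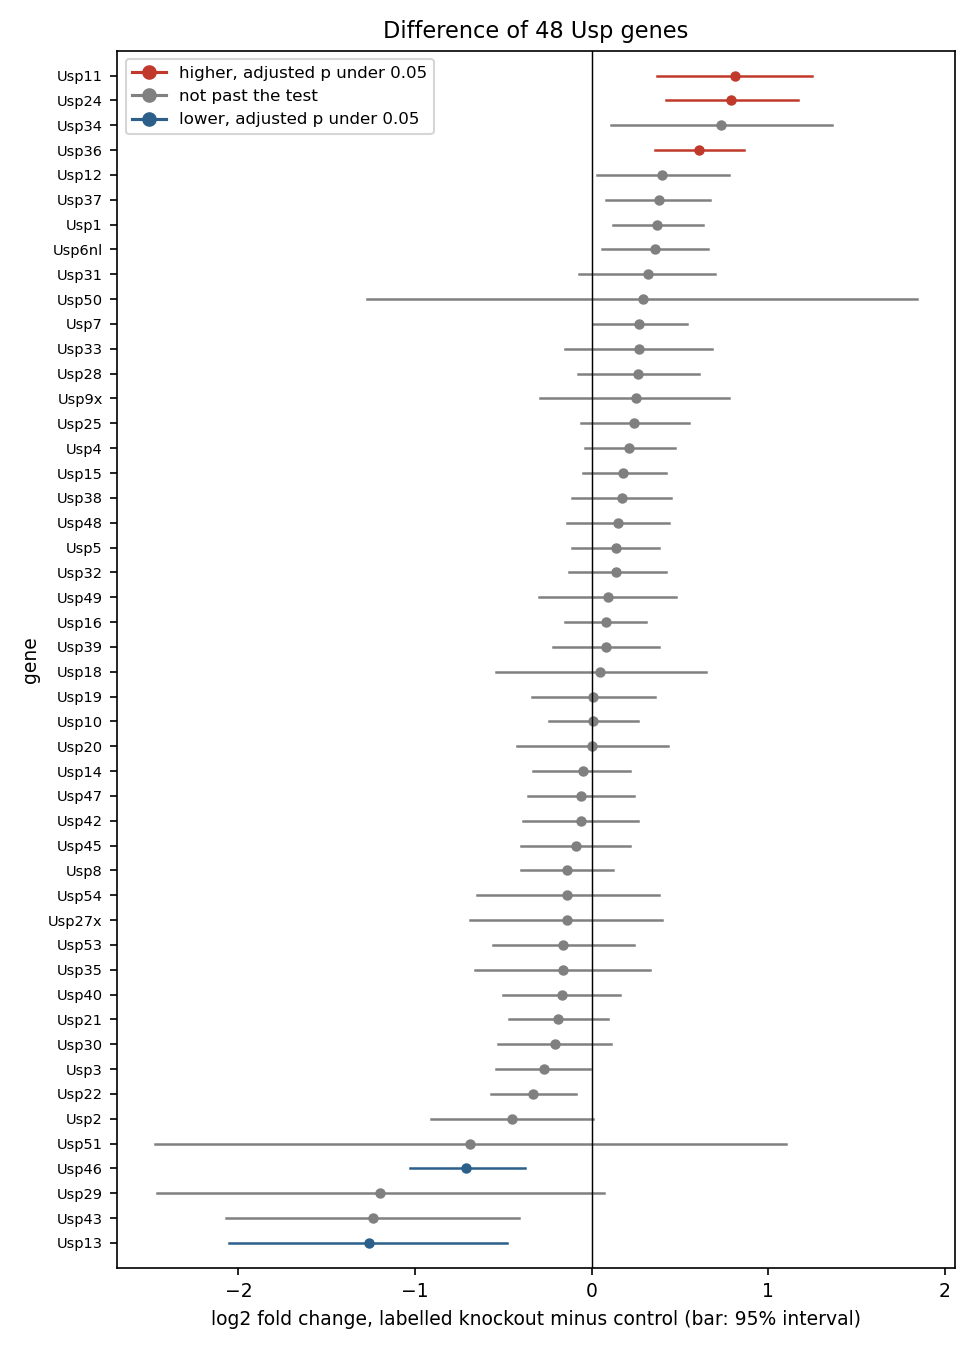
Log2 fold change, libraries labelled knockout minus controls (x axis; points, with bars for the 95% interval), of each of the 48 Usp genes (y axis). Red marks the 3 genes that rose, blue the 2 that fell and grey the 43 that did not pass; Usp29, Usp50 and Usp51, the genes with the fewest counts, have the widest bars.

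Control replicate 1 differed from control replicate 2 along transcript length, and all 5 calls were lost without it. Of the 48 members 35 were lower in control replicate 1 than in control replicate 2, against 9434 of 19134 genes. Over the 42 members of at least 10 CPM the log2 ratio of the 2 controls fell with summed exon length (Spearman's rho −0.37), as it did over all 11257 genes of that level (rho −0.46). These points share the same 2 libraries, and genes are not independent replicates. Among the 2815 shortest of those genes, up to 3007 bases, the median log2 ratio was 0.19, and among the 2814 longest, from 7179 bases, it was −0.16. Between the 2 libraries labelled knockout rho was 0.17 for members and 0.05 for all genes. The largest gaps among these members were those of Usp34 (−0.72, 18453 bases) and Usp9x (−0.59, 15051 bases). Without control replicate 1, edgeR called 0 members higher and 0 lower, where 7 and 3 had an unadjusted p under 0.05, and called 1126 of all genes. The 5 log2 differences were then 0.61 for Usp11, 0.63 for Usp24, 0.55 for Usp36, −0.75 for Usp46 and −1.27 for Usp13, with adjusted p of 0.0712, 0.052, 0.0612, 0.071 and 0.157. Directions were kept, and the 3 positive differences were smaller than with all libraries. The part of transcript length in these differences was not tested.

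**Figure D3:**
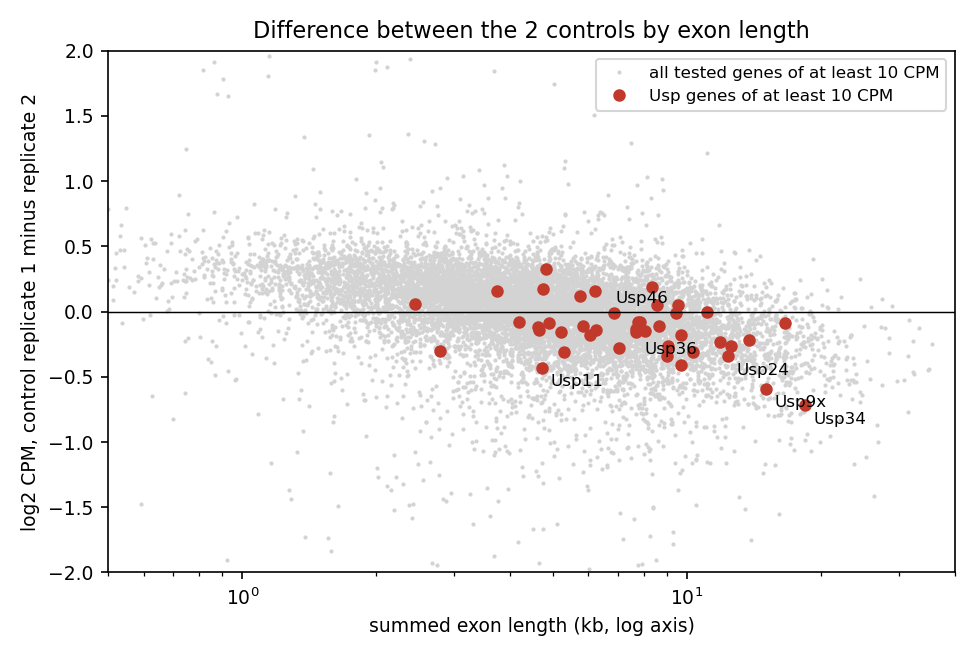
Log2 CPM of control replicate 1 minus control replicate 2 (y axis, cut at −2 and 2) against summed exon length in kb (x axis, log scale) for Usp genes of at least 10 CPM (red) and all tested genes of that level (grey). The cloud slopes down, and Usp34 and Usp9x, at −0.72 and −0.59, are the lowest Usp genes.

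**Figure D4:**
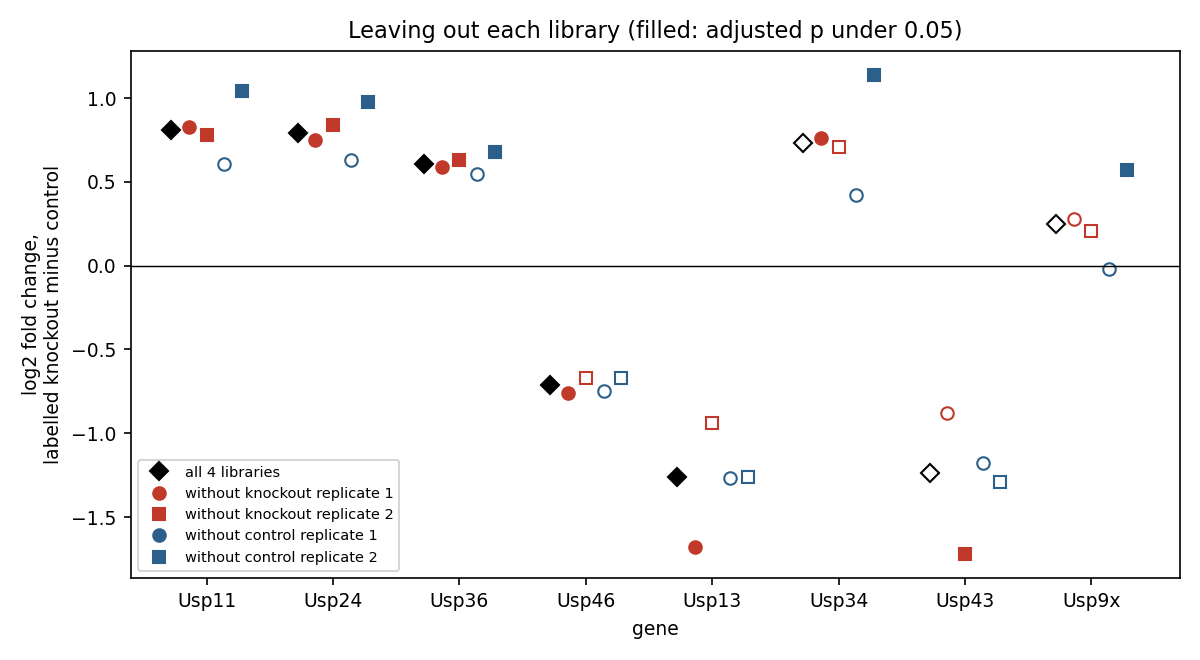
Log2 fold change, libraries labelled knockout minus controls (y axis), of the 5 genes that passed and of Usp34, Usp43 and Usp9x (x axis), with all 4 libraries (diamonds) and after leaving out each in turn (red, a library labelled knockout; blue, a control; circles, replicate 1; squares, replicate 2). Filled symbols have an adjusted p under 0.05. Without control replicate 1 no gene shown is filled, and Usp9x lies at −0.02.

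The promoters of the 5 genes that passed with all 4 libraries are shown. Each runs from 250 bases before to 50 after the RefSeq start (GRCm38.p6), 5′ to 3′ on the gene's strand. Capitals mark matches on either strand to 6 motifs: the E-box (CACGTG), the CCAAT box (CCAAT), the GC box (GGGCGG), the TATA box (TATAAA), the core of ETS sites (CCGGAA) and the CRE core (TGACG); neighbouring GC box matches in Usp46 overlap. The windows are, in the order shown, chrX:20703659-20703958, plus strand; chr4:106315963-106316262, plus strand; chr11:118290195-118290494, minus strand; chr5:74068362-74068661, minus strand; and chr3:32817376-32817675, plus strand.
Usp11: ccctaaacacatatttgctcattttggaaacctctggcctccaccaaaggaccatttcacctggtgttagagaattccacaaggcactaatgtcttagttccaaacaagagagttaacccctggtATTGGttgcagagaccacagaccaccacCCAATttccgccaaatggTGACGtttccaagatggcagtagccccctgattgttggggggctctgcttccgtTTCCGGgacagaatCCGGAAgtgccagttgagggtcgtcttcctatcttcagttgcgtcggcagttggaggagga
Usp24: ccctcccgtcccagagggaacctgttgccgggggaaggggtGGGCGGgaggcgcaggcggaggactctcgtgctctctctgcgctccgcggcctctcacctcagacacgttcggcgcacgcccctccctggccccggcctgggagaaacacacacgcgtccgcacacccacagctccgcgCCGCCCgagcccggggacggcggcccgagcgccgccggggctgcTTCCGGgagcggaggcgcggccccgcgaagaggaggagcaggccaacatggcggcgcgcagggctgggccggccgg
Usp36: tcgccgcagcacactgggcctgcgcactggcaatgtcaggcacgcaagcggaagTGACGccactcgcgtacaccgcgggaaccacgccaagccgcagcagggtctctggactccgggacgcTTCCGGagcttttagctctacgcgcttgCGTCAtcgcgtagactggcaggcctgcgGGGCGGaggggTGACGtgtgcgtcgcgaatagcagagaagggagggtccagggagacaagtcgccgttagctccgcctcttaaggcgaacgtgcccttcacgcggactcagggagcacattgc
Usp46: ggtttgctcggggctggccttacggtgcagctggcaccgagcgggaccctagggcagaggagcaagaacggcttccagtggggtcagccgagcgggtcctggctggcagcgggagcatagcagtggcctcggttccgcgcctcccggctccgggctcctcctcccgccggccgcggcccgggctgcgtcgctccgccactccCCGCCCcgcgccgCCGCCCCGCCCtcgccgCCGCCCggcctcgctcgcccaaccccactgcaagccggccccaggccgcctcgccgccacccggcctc
Usp13: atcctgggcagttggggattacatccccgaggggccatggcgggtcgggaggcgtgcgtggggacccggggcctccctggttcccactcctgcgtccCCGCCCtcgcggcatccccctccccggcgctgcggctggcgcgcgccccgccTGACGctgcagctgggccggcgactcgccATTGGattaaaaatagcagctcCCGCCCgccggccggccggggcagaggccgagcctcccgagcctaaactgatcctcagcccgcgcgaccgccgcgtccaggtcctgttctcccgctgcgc

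Usp24, Usp36, Usp46 and Usp13 have GC-rich windows, with 76.7%, 65%, 78% and 73.7% G or C and 39, 33, 38 and 36 CpG, and each holds 1 or more GC boxes (2, 1, 4 and 2). Usp11 has 50.7% G or C, 8 CpG and no GC box, but 2 CCAAT boxes and 2 ETS cores. No E-box and no TATA box was found in the 5 windows. Over the 38 windows that RefSeq gave for 37 of the 48 members, the median was 65.7% G or C and 29 CpG, against 52.7% and 7 CpG over all 32851 windows. A GC box was in 73.7% of member windows and 35.7% of all windows, an ETS core in 28.9% and 14.9%, a CRE core in 36.8% and 20.8%, an E-box in 13.2% and 7.15%, a CCAAT box in 21.1% and 37.4%, and a TATA box in 5.26% and 13.6%. A match describes letters only. Member windows came from genes that passed the count filter, while the set of all windows was not filtered by counts. The part of that filter in these contrasts was not tested.

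Usp36, a nucleolar enzyme that removes ubiquitin from Myc and from nucleolar proteins, rose (chromosome 11, 118259651 to 118290244, minus strand, GRCm38). It had 78.1 and 76.1 CPM in the libraries labelled knockout, against 48.2 and 52.6 CPM in the controls, with no overlap and close replicates. The difference was 0.61 ± 0.10 (edgeR adjusted p = 0.0158), or 52.8% higher (95% interval of the log2 difference 0.36 to 0.86). The 6 other members of this group act on p53, Myc or the cell cycle, and none passed. Usp7, which stabilises the p53 ligase Mdm2 and p53 itself, had 216 and 217 CPM in the libraries labelled knockout, against 174 and 184 CPM in the controls (log2 difference 0.27 ± 0.10, edgeR adjusted p = 0.124). Usp2, a clock-controlled enzyme of cyclin D1, had 11.8 and 12 CPM in the libraries labelled knockout, against 18.1 and 14.4 CPM in the controls (log2 difference −0.45 ± 0.18, edgeR adjusted p = 0.138). Groups did not overlap for either gene, with Usp7 above and Usp2 below the controls. Usp37, an enzyme of S phase entry, had a log2 difference of 0.38 ± 0.12 and Usp28, which protects Myc, at 0.26 ± 0.14. Usp42 and Usp10, both p53 deubiquitinases, had log2 differences of −0.06 ± 0.13 and 0.01 ± 0.10, with overlapping groups.

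Usp24, a very large enzyme linked to p53 and the DNA damage response, rose (chromosome 4, 106316213 to 106441322, plus strand). It had 210 and 198 CPM in the libraries labelled knockout, against 104 and 132 CPM in the controls, the widest gap in CPM of any member that passed. Its log2 difference was 0.79 ± 0.15 (edgeR adjusted p = 0.0226), or 73.3% higher (interval 0.42 to 1.17). Among the other large signalling enzymes Usp34, which acts on axin in Wnt signalling, had 166 and 173 CPM in the libraries labelled knockout, against 76.9 and 127 CPM in the controls. The groups did not overlap, yet the controls were 0.72 apart on the log2 scale and Usp34 did not pass (log2 difference 0.73 ± 0.24, edgeR adjusted p = 0.0911). It passed without knockout replicate 1 (edgeR adjusted p = 0.0498), without control replicate 2 (0.0251) and with DESeq2 (0.0175), and its difference was 0.42 without control replicate 1 and 1.14 without control replicate 2. Usp9x, an X-linked enzyme that protects Mcl1 and junction proteins, had 198 and 209 CPM in the libraries labelled knockout, against 137 and 206 CPM in the controls (log2 difference 0.25 ± 0.21, edgeR adjusted p = 0.438). Control replicate 2 lay within the range of the libraries labelled knockout and only control replicate 1 was low: the difference was −0.02 without that library and 0.57 without control replicate 2 (edgeR adjusted p = 0.0465). Usp47, an enzyme of DNA polymerase beta, had a log2 difference of −0.06 ± 0.12.

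Usp9y, the Y-linked copy of Usp9x, had 2 and 2 counts in the libraries labelled knockout and 0 and 0 counts in the controls, at most the 3 counts a library that a count of 0 allows. Ddx3y, another Y-linked gene, had 4263 and 4116 counts in the libraries labelled knockout and 2416 and 2514 counts in the controls, and Xist, the RNA of the inactive X, had 9 and 8 counts in the libraries labelled knockout and 10 and 6 in the controls. These counts are not scaled to library size. The scaled log2 difference was 0.45 ± 0.10 for Ddx3y. For the other Y-linked genes listed it was 0.40 ± 0.10 (Kdm5d), −0.19 ± 0.15 (Eif2s3y) and −0.19 ± 0.12 (Uty). Y-linked RNA was thus present in all 4 libraries while Usp9y stayed near 0.

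Usp11, an X-linked enzyme of TGF-beta receptor signalling and DNA repair, rose (chromosome X, 20703906 to 20720539, plus strand). It had 47 and 48.7 CPM in the libraries labelled knockout, against 23.3 and 31.4 CPM in the controls, and the controls were 0.43 apart on the log2 scale. The difference was 0.81 ± 0.17 (edgeR adjusted p = 0.0313), or 75% higher (interval 0.37 to 1.25). Its paralogues Usp4 and Usp15, which share its domain order and act on splicing factors and TGF-beta receptors, did not pass. Usp4 had 134 and 131 CPM in the libraries labelled knockout, against 110 and 119 CPM in the controls (log2 difference 0.21 ± 0.10, edgeR adjusted p = 0.182). Usp15 had 92.8 and 93.7 CPM in the libraries labelled knockout, against 79.6 and 84.5 CPM in the controls (log2 difference 0.18 ± 0.09, edgeR adjusted p = 0.203). All 3 paralogues were above the controls without overlap, as were 45.8% of the 48 members and 34.4% of all genes. Of the other X-linked members tested, Usp27x and Usp51, H2B enzymes related to Usp22, had log2 differences of −0.14 ± 0.22 and −0.69 ± 0.70.

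**Figure D5:**
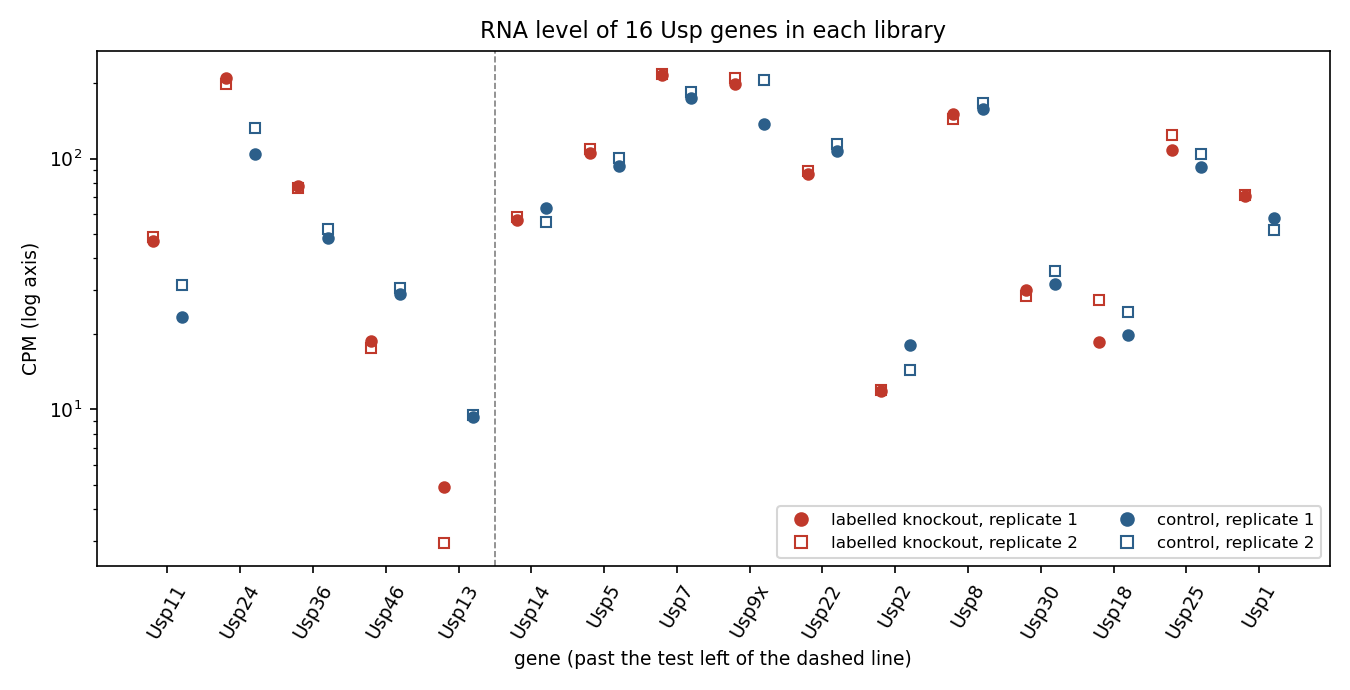
CPM (y axis, log scale) in each library of 16 Usp genes (x axis): the 5 that passed, left of the dashed line, and 11 others. Red marks libraries labelled knockout and blue controls; circles are replicate 1 and squares replicate 2. Red and blue separate for each of the 5, and Usp14, Usp9x and Usp18 overlap.

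Usp46, an enzyme that is active when bound to Wdr48 and that acts on glutamate receptors in neurons, fell (chromosome 5, 73998453 to 74068431, minus strand). It had 18.7 and 17.6 CPM in the libraries labelled knockout, against 28.9 and 30.6 CPM in the controls, and replicates lay close together in both groups. The log2 difference was −0.71 ± 0.13 (edgeR adjusted p = 0.0209), or 38.8% lower (interval −1.03 to −0.38). The call was lost without knockout replicate 2 (edgeR adjusted p = 0.0707), without control replicate 1 (0.071) and without control replicate 2 (0.0638), where the difference stayed between −0.75 and −0.67. Its nearest relative Usp12 had 82.8 and 106 CPM in the libraries labelled knockout, against 67.7 and 74.7 CPM in the controls (log2 difference 0.40 ± 0.15, edgeR adjusted p = 0.11), so the 2 Wdr48 partners lay on opposite sides of their controls; only Usp46 passed, and the difference between them was not tested. Usp1, the third Wdr48 partner, which acts on Fancd2 and Pcna in DNA repair, had 71.1 and 71.7 CPM in the libraries labelled knockout, against 58.1 and 52 CPM in the controls (log2 difference 0.37 ± 0.10, edgeR adjusted p = 0.0558). Wdr48 had 69.1 and 65.8 CPM in the libraries labelled knockout, against 52.9 and 63.9 CPM in the controls (log2 difference 0.21 ± 0.12, edgeR adjusted p = 0.277). Usp45, an enzyme of excision repair, had a log2 difference of −0.09 ± 0.12.

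Usp13, a relative of Usp5 that acts in autophagy and in degradation from the endoplasmic reticulum, fell (chromosome 3, 32817546 to 32938071, plus strand). It had 4.91 and 2.94 CPM in the libraries labelled knockout, against 9.37 and 9.5 CPM in the controls, from 137 and 86 counts in the libraries labelled knockout and 206 and 227 counts in the controls. Both libraries labelled knockout lay below both controls but differed from each other by 0.74 on the log2 scale. The log2 difference was −1.26 ± 0.31 (edgeR adjusted p = 0.044), or 58.4% lower (interval −2.05 to −0.48). It was not called without knockout replicate 2 (difference −0.94, edgeR adjusted p = 0.0709), without control replicate 1 (0.157), without control replicate 2 (0.129) or with a filter on a mean count of 10 (0.0501). The other members of this group work at the proteasome or on free ubiquitin chains. Usp14, which trims chains on the proteasome beside Psmd14, had 56.7 and 58.4 CPM in the libraries labelled knockout, against 63.5 and 55.8 CPM in the controls (log2 difference −0.05 ± 0.11, edgeR adjusted p = 0.757). Its groups overlapped, and the 95% interval of the log2 difference ran from −0.33 to 0.22. Usp5, which takes apart unanchored chains, had 105 and 109 CPM in the libraries labelled knockout, against 93.3 and 101 CPM in the controls (log2 difference 0.14 ± 0.10, edgeR adjusted p = 0.361, interval −0.11 to 0.38).

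Enzymes of histones did not pass. Usp22, the H2B protease of the SAGA coactivator, had 86.9 and 89.1 CPM in the libraries labelled knockout, against 107 and 114 CPM in the controls (log2 difference −0.33 ± 0.09, edgeR adjusted p = 0.0628). The groups did not overlap, and the fitted level was 20.4% lower, short of the threshold. Usp3 and Usp21, which act on H2A, had log2 differences of −0.27 ± 0.11 and −0.19 ± 0.11, both below their controls without overlap. Usp16, another H2A enzyme, had a log2 difference of 0.08 ± 0.09, and Usp49, which acts on H2B, at 0.09 ± 0.15. Usp44, an H2B enzyme of pluripotent cells and the mitotic checkpoint, had 13 and 5 counts in the libraries labelled knockout and 2 and 0 counts in the controls, too few to be tested. Its ratio per total count was 7.73, with an exact 95% counting interval from 1.85 to 68.7 that covers counting error only.

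Enzymes of membranes and organelles did not pass either. Usp8, which frees growth factor receptors from ubiquitin at endosomes, was the most abundant member per length, with 150 and 144 CPM in the libraries labelled knockout, against 157 and 166 CPM in the controls (log2 difference −0.14 ± 0.10, edgeR adjusted p = 0.365). Usp30, which opposes mitophagy at the outer mitochondrial membrane, had 29.8 and 28.4 CPM in the libraries labelled knockout, against 31.6 and 35.7 CPM in the controls (log2 difference −0.21 ± 0.13, edgeR adjusted p = 0.283). Both were below the controls without overlap. Usp19, a tail-anchored enzyme of the endoplasmic reticulum, had 196 and 183 CPM in the libraries labelled knockout, against 170 and 207 CPM in the controls (log2 difference 0.01 ± 0.14, edgeR adjusted p = 0.965), with the libraries labelled knockout between the controls. Usp20 and Usp33, paralogues that bind the von Hippel-Lindau protein, had log2 differences of 0.00 ± 0.17 and 0.27 ± 0.16, and Usp32, an enzyme of Golgi and endosomes, at 0.14 ± 0.11. Usp6nl, the GTPase-activating protein that shares the name, had 54.7 and 49.7 CPM in the libraries labelled knockout, against 38.6 and 42.8 CPM in the controls (log2 difference 0.36 ± 0.12, edgeR adjusted p = 0.085).

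The innate immune members did not pass. Beside them the 10 lymphocyte markers had a median log2 difference of 4.06, and 8 macrophage markers one of −0.71, with 6 of the 8 lower and summed levels of 2440 and 2300 CPM in the libraries labelled knockout, against 3880 and 3500 CPM in the controls. Usp18, which removes the ubiquitin-like protein Isg15 and restrains interferon receptor signalling, had 18.6 and 27.4 CPM in the libraries labelled knockout, against 19.8 and 24.4 CPM in the controls. Groups overlapped, replicate 2 was the higher library in both groups, and the difference was 0.05 ± 0.23 (edgeR adjusted p = 0.889). Usp25, an enzyme of Toll-like receptor and interleukin 17 signalling, had 108 and 124 CPM in the libraries labelled knockout, against 92.5 and 104 CPM in the controls (log2 difference 0.24 ± 0.12, edgeR adjusted p = 0.199), above the controls without overlap. Isg15 had a log2 difference of −0.45 ± 0.20. Of 7 genes of the Isg15 system 1 passed, where 22.1% of all genes did: Uba7, the activating enzyme of Isg15, rose, with 136 and 167 CPM in the libraries labelled knockout, against 74.5 and 101 CPM in the controls (log2 difference 0.79 ± 0.19, edgeR adjusted p = 0.0416). That call was lost without knockout replicate 2, control replicate 1 or control replicate 2 (edgeR adjusted p = 0.0603, 0.137 and 0.0514).

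Members long annotated as lacking catalytic activity did not pass. Usp39, a spliceosome subunit, had a log2 difference of 0.08 ± 0.12. Usp53, a tight junction protein, had a log2 difference of −0.16 ± 0.16 and its relative Usp54 at −0.14 ± 0.20; for both, groups overlapped. Less characterised members ranged more widely. Usp43 had 3.51 and 6.33 CPM in the libraries labelled knockout, against 12.1 and 11.2 CPM in the controls, and just missed the threshold (log2 difference −1.24 ± 0.33, edgeR adjusted p = 0.0528). Its libraries labelled knockout differed by 0.85 on the log2 scale; the difference was −1.72 without knockout replicate 2 (edgeR adjusted p = 0.00166) and −0.88 without knockout replicate 1 (0.0697), and DESeq2 (0.00612) and limma-voom (0.0393) called it lower. Knockout replicate 2 also held more enterocyte RNA, with 584 CPM over 8 markers against 9.21 CPM in knockout replicate 1 and 27 and 33.5 CPM in the controls; its part in the Usp43 values was not tested. Usp31, Usp38, Usp48, Usp35 and Usp40 had log2 differences of 0.32 ± 0.15, 0.17 ± 0.11, 0.15 ± 0.11, −0.16 ± 0.19 and −0.17 ± 0.13.

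Germ cell members, Usp51 and the Usp17 cluster were at or near 0. Usp29, an imprinted gene, had 8 and 11 counts in the libraries labelled knockout and 20 and 15 counts in the controls (log2 difference −1.20 ± 0.50, edgeR adjusted p = 0.146). Usp50 had 12 and 11 counts in the libraries labelled knockout and 10 and 5 counts in the controls and Usp51 had 12 and 4 counts in the libraries labelled knockout and 9 and 12 counts in the controls. Usp26 and the 5 genes of the Usp17 cluster on chromosome 7 had 0 counts in every library, which allows up to 3 counts a library; the Usp17 genes are near-identical copies, so their counts are uncertain. Usp46os2 had 0 counts and Usp46os1 2 counts in each group. Per length, with CPM divided by the kilobases of all annotated exons, Usp8 was highest over the 4 libraries (36.8 CPM per kb), followed by Usp19 (26.8), Usp7 (25.5), Usp5 (22.1), Usp25 (20.6) and Usp22 (20.3), and among tested members Usp29 was lowest (0.0304).

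Deubiquitinases outside the name rule were mixed. The set held Usp-fold, UCH, OTU, Josephin, MINDY and Zup1 genes, and left out the metalloprotease family of Psmd14. Of 30 tested, 4 rose (13.3%, against 12.1% of all genes) and 26 did not pass, so the share that rose was close to that of all genes, and the 4 were the only ones called in either direction (22.1% of all genes were). The 30 had a median log2 difference of −0.03. Cyld, a Usp-fold enzyme without the name that cuts linear and lysine 63 chains and brakes NF-kB, rose, with 120 and 126 CPM in the libraries labelled knockout, against 60.9 and 68.8 CPM in the controls (log2 difference 0.92 ± 0.11, edgeR adjusted p = 0.00777). It was called in all 13 alternative fits at the same threshold. So was Tnfaip3, the OTU enzyme A20 that also brakes NF-kB, with 89.9 and 92.7 CPM in the libraries labelled knockout, against 32.4 and 38.7 CPM in the controls (log2 difference 1.36 ± 0.12, edgeR adjusted p = 0.0044). The OTU enzymes Otud4, which acts in DNA alkylation repair, and Yod1, a partner of the ATPase p97, rose by 0.65 ± 0.12 and 0.71 ± 0.14 (edgeR adjusted p = 0.0216 and 0.0269). Otud4 was lost without knockout replicate 2 or control replicate 1 (edgeR adjusted p = 0.0757 and 0.0791), and Yod1 with the replicate block (0.0575) and without any 1 of the 4 libraries (0.0694 to 0.087). All 4 UCH, 3 Josephin and 5 MINDY and Zup1 genes tested did not pass, with medians of 0.05, −0.33 and −0.08.

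Partners and substrates were mixed. Of 11 cofactors 2 rose, G3bp1, the stress granule protein that binds Usp10, by 0.47 ± 0.11 and Atxn7, the SAGA subunit that anchors Usp22, by 0.45 ± 0.11 (edgeR adjusted p = 0.043 and 0.0483), and 9 did not pass; 12.1% of all genes rose, so a count of 2 is near that share. Leaving out any 1 library ended the call of G3bp1 (0.0619 to 0.223), and for Atxn7 only the fit without control replicate 2 kept it (0.0412, otherwise 0.106 to 0.171); with the replicate block neither was called (0.0918 and 0.0742). Of the 13 alternative fits, 7 called G3bp1 and 6 called Atxn7. The 6 ubiquitin genes and activating enzymes did not pass (median −0.16). In the list of p53, its ligases and its targets 1 of 8 rose and 3 fell, where 12.1% of all genes rose and 9.95% fell. Mdm4, which restrains p53 and is a substrate of Usp2 and Usp7, rose, with 349 and 337 CPM in the libraries labelled knockout, against 200 and 236 CPM in the controls (log2 difference 0.65 ± 0.13, edgeR adjusted p = 0.0288). Cdkn1a, the p53 target p21, fell, with 45.7 and 53.5 CPM in the libraries labelled knockout, against 160 and 119 CPM in the controls (log2 difference −1.49 ± 0.18, edgeR adjusted p = 0.00853), and Ccng1, another target, also fell (log2 difference −0.67 ± 0.11, edgeR adjusted p = 0.0176). Bbc3, the p53 target Puma, was the third to fall, with 10.3 and 9.59 CPM in the libraries labelled knockout, against 18.9 and 15.2 CPM in the controls (log2 difference −0.78 ± 0.18, edgeR adjusted p = 0.0397), and was not called without any 1 of the 4 libraries (0.052 to 0.135) or with the replicate block (0.0576). Cdkn1a was called in all 13 alternative fits; Mdm4 was called without control replicate 2 alone of the 4 libraries and not with the replicate block (0.0594), and Ccng1 likewise was called without control replicate 2 and not without any other library (0.0502 to 0.0956). Bbc3 was called in 7 of the 13 alternative fits. Trp53 and Mdm2 had log2 differences of −0.06 ± 0.12 and −0.21 ± 0.11.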

How the data were processed

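RNA of mouse pancreas was sequenced, 2 libraries per group, with groups and replicate numbers from the titles. Per the submitters' processing notes, the authors' tools were STAR 2.7.6a, featureCounts 2.0.1, SAMtools 1.7, FastQC 0.11.9 and Trim Galore 0.6.6, and the genome build was GRCm38; no source used here names the annotation, the strand setting or the handling of multiple alignments. The deposited values are raw whole-number counts per gene symbol. Reads shared by overlapping genes can therefore not be assigned: 51.2% of Usp49 exon bases overlap Gm20517, 26% of Usp14 Thoc1, 20.5% of Usp38 Gm9725, 15.3% of Usp33 Gm43857, 14.3% of Usp29 Zim3, 12.8% of Usp43 9130017K11Rik, 11.6% of Usp34 Ahsa2 and, of the genes that passed, 3.67% of Usp46 Usp46os2 in GENCODE M21, used here for positions and exon lengths (53292 of 55291 symbols matched).

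Counts were filtered with filterByExpr (19134 genes kept), scaled with TMM and tested with edgeR 4.0.16 in R 4.3.3 (quasi-likelihood F test, group only, Benjamini-Hochberg over all tested genes); the code was tested on simulated data. SE is the log2 fold change over the square root of F. Replicates correlated at r = 0.98 and 0.988 (log2 CPM over genes, libraries labelled knockout and controls) and differed beyond sampling noise (chi-square per degree of freedom 36 and 50.9). Alternatives used DESeq2 1.42.0, limma 3.58.1 (voom), other scalings and filters, a replicate block and leaving out each library.

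The members and lists were chosen with earlier results of these data known. The rule for named genes took members that passed, 12 fixed members and up to 3 called genes of each pathway list; Usp4, Usp6nl, Usp12, Usp15, Usp19, Usp34, Usp43 and Usp44, and the other genes given values outside it, were named after their values were seen, to account for every member. Protein sequences were not used here. Coordinates are GRCm38.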

Additional observations from a re-analysis of the deposited data

How the results depend on the processing

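Other scalings (DESeq2 size factors, upper quartile, TMM without immune, adipocyte and acinar genes), limma-voom, DESeq2 and no low-count filter gave 3 or 4 members higher and 2 or 3 lower, always with the same 5 genes among them. Without scaling beyond the library total 6 members were higher (Usp1, Usp37 and Usp6nl besides) and 2 lower; the median of all genes then moved to 0.1 and that of the members to 0.17. With a filter on a mean count of 10, 1 member was lower, Usp46. At an adjusted p of 0.01 edgeR called 0 members higher and 0 lower (9 and 5 had an unadjusted p under 0.05), while DESeq2 called 3 and 3 and limma-voom 0 and 0; 2 other deubiquitinases and 967 genes were called. With the replicate block, 3 members were higher and 2 lower, 3392 genes and 3 other deubiquitinases were called, and no member changed its call. Over all tested genes the deviations of same-numbered libraries were hardly correlated (r = −0.05). The labels give only the number, and a batch shared by same-numbered libraries was not tested. Leaving out 1 library gave 0 to 5 members higher, 0 to 2 lower, 1126 to 4034 genes and 2 to 4 other deubiquitinases; the library left alone in its group borrows the spread of the other group. Without control replicate 1 or control replicate 2, edgeR called 0 members lower (3 and 4 had an unadjusted p under 0.05), and other tools were not run there.

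Signs changed for 12 members near 0, none of them called with all libraries; Usp9x was called without control replicate 2. Over the 4 fits that leave out 1 library the log2 difference ran from −0.02 to 0.57 for Usp9x, −0.04 to 0.06 for Usp10, −0.14 to 0.05 for Usp14, −0.25 to 0.3 for Usp18, −0.12 to 0.16 for Usp19, −0.16 to 0.19 for Usp20, −0.38 to 0.03 for Usp35, −0.15 to 0.02 for Usp42, −0.17 to 0.05 for Usp47, −0.17 to 0.93 for Usp50 and −0.39 to 0.08 for Usp54. With no scaling Usp14 was at 0.05, Usp42 at 0.03, Usp45 at 0.01 and Usp47 at 0.03, and with no low-count filter Usp20 was at 0. The cause was not tested. Depth limits Usp29, Usp44, Usp50 and Usp51, with at most 20 counts a library.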
